A study of Homo sapiens with 6 samples.

Results

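GOLT1B, EVI5, TMEM87B and VPS4B code for proteins of membrane trafficking, and were taken from a comparison of MOLM14 cells given siRNA against ATF4 with cells given control siRNA because the levels of the 2 groups did not overlap. They are 4 of 14884 genes measured, and each is represented by 1 feature of a whole-transcript array, numbered 16749126, 16689618, 16884403 and 16855697 in that order. MOLM14 is a long-established monocytic cell line from acute myeloid leukaemia, with an internal tandem duplication in FLT3 and a fusion of KMT2A to MLLT3. Both groups were grown in RPMI glutamax with serum and electroporated with siRNA at 70 nM. One group received siRNA against ATF4 (siATF4, 3 arrays) and the other a non-targeting pool (siCTRL, 3 arrays). The comparison asks which transcripts differ when the mRNA of ATF4, the transcription factor of the integrated stress response, is targeted. The time between transfection and lysis is not given in the labels, and a single siRNA product served for the target. Since the labels name the samples technical replicates, a p-value here covers no more than the variation among them, part of which may be technical.

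Proteins made in the endoplasmic reticulum (ER) travel to the Golgi in coated vesicles, are sorted there, and reach the cell surface, endosomes or lysosomes, while retrograde carriers return receptors to the Golgi. GOLT1B is the human relative of yeast Got1, a small membrane protein of ER-to-Golgi transport. TMEM87B is a Golgi membrane protein with a GOLD domain and 7 transmembrane passes, linked to retrograde transport from endosomes. EVI5 carries a TBC domain, the fold of proteins that switch off RAB GTPases, binds RAB11 and stabilises FBXO5, an inhibitor of the anaphase-promoting complex. VPS4B is an AAA ATPase that takes apart ESCRT-III filaments, which cut membrane necks at endosomes, at the midbody and at other sites.

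The sequence just before each start is shown because the knocked-down protein is a transcription factor and 3 of the 4 genes moved the same way. Each line gives the last 150 bases before the annotated start, in the direction of transcription, from RefSeq on GRCh38.p14, with CCAAT on either strand in capitals. EVI5 has 2 annotated starts.
GOLT1B, chr12:21501639-21501788, plus strand: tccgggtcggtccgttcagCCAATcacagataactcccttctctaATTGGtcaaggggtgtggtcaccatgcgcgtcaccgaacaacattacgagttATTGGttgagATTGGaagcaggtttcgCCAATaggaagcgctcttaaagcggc
EVI5, upstream start, chr1:92792411-92792560, minus strand: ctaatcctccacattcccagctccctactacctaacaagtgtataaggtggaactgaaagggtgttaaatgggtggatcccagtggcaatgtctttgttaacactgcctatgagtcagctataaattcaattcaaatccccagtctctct
EVI5, downstream start, chr1:92785109-92785258, minus strand: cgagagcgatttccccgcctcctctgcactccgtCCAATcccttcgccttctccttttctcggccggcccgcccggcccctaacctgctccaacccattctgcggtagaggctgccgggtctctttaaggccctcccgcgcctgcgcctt
TMEM87B, chr2:112055119-112055268, plus strand: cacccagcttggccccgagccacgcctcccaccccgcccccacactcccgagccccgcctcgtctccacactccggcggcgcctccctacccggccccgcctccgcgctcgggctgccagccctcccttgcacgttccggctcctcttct
VPS4B, chr18:63422477-63422626, minus strand: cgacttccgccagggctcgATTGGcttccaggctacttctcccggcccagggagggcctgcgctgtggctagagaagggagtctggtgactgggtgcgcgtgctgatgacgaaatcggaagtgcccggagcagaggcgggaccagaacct
The GOLT1B line holds 5 copies of CCAAT, the core that the factor NF-Y recognises. VPS4B and the downstream EVI5 start have 1 copy each, and the upstream EVI5 start and TMEM87B have 0. Among 35116 RefSeq start windows of 250 bases, 32.0% hold at least 1 copy and 0.319% hold 5 or more. The same 250 bases before each start were searched on both strands for TGATGNAAT, a form of the element bound by ATF4 with C/EBP partners, which is present in 0.888% of all windows. They were also searched for the cyclic AMP response element TGACGTCA (1.65% of windows), the unfolded protein response element TGACGTGG (0.612%), the Golgi stress element ACGTGGC (2.78%) and CACGTG, the E-box of MYC and TFEB family factors (6.34%). None of these letters occur in the windows of the 4 genes, which says nothing about binding elsewhere. The downstream EVI5 window has 20 CpG dinucleotides and the upstream one 0, against a median of 11 over all windows. GOLT1B lies head to head with RECQL, a DNA helicase gene, with 153 bases between the 2 starts, so both share this stretch.

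The targeted gene was lower on every siATF4 array. ATF4 was at 7.72, 7.88 and 8.14 with siATF4, against 8.67, 8.64 and 8.85 with siCTRL on the log2 scale of the array. The log2 difference, siATF4 minus siCTRL throughout, was -0.80 (standard error, SE, 0.14), or 57.4% of the control level, with an adjusted p of 1.00 in limma. For this single target the unadjusted limma p was 0.00082, with a 95% interval of -1.14 to -0.47. No gene passed limma at an adjusted p of 0.05 over 14884 genes (0 called, 0%), and 218 genes had an unadjusted p below 0.05. That is a smaller share than the 0.05 of genes that would fall there with no difference between groups. Array medians lay between 3.88 and 3.96, and precision is limited by the number of arrays, with a median SE of 0.15 for the difference of a gene. Of 9 measured monocytic and myeloid marker genes, 4 lay above the upper quartile of all genes on each array: CD68, LYZ, FLT3 and SPI1. Of the 9, only 6 lay above the median of all genes on each array. The 4 T cell, 2 B cell and 2 erythroid markers had 0 above the upper quartile on each array and 0, 0 and 1 above the median. The mean of the monocytic markers ran from 6.74 to 7.75 over the siATF4 arrays and from 6.75 to 7.90 over the siCTRL arrays. In bulk RNA, fewer cells of a kind and less RNA per cell cannot be told apart.

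The rule that chose the members used these same levels, so their differences are a description and carry no test. Groups without overlap were found for 877 of all genes (5.89%): 491 with siATF4 above siCTRL (3.3%) and 386 with siATF4 below (2.59%). For 3 against 3 exchangeable arrays, a share of 0.1 of genes would lie without overlap, so 5.89% is no excess. GOLT1B, EVI5 and TMEM87B belong to the first kind and VPS4B to the second. Each member lay above the median of all genes on all 6 arrays, and GOLT1B, TMEM87B and VPS4B lay above the upper quartile on all 6, EVI5 on 2.

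GOLT1B, the ER-to-Golgi protein, read 7.51, 7.49 and 7.36 on siATF4 arrays 1 to 3 and 6.83, 6.87 and 6.86 on siCTRL arrays 1 to 3. The siCTRL arrays lay within 0.039 of each other, and each siATF4 array stood well above them. The means were 7.45 ± 0.08 (SD, n = 3) and 6.85 ± 0.02 (SD, n = 3), a log2 difference of 0.60, or 1.52-fold. The gap between the lowest siATF4 and the highest siCTRL array was 0.49, the widest of the 491 genes that lay higher without overlap. Its spread within groups was small: 2.55% of all genes had a smaller pooled SD.

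EVI5, the TBC-domain protein, had levels of 6.67, 6.41 and 6.46 with siATF4 and 5.80, 5.83 and 6.08 with siCTRL. The siATF4 replicate 1 array was the highest and siCTRL replicate 3 the highest of its group. The means were 6.51 ± 0.14 and 5.90 ± 0.15 (SD, n = 3 each), a log2 difference of 0.61, or 1.53-fold, with a gap of 0.33. Differences within a replicate number were 0.87, 0.58 and 0.38, the widest range among the 4 members.

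TMEM87B, the Golgi protein, had levels of 7.81, 7.57 and 7.62 with siATF4 and 7.20, 6.98 and 7.25 with siCTRL. Replicate 2 was the lowest array of both groups, and the groups stayed apart by 0.32. The means were 7.67 ± 0.13 and 7.14 ± 0.14 (SD, n = 3 each), a log2 difference of 0.52, or 1.44-fold. By replicate number the differences were 0.61, 0.59 and 0.37, with number 3 the smallest, as for EVI5 and GOLT1B (0.68, 0.62 and 0.51).

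VPS4B, the ESCRT-III ATPase, went the other way, with levels of 8.48, 8.27 and 8.53 with siATF4 and 8.97, 8.82 and 9.04 with siCTRL. Replicate 2 was again the lowest array of both groups and replicate 3 the highest. The means were 8.43 ± 0.13 and 8.95 ± 0.11 (SD, n = 3 each), a log2 difference of -0.52, which leaves 69.7% of the control level, with a gap of 0.30. Differences within a replicate number were -0.49, -0.55 and -0.52, a narrower range than for the other members.

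**Figure D1:**
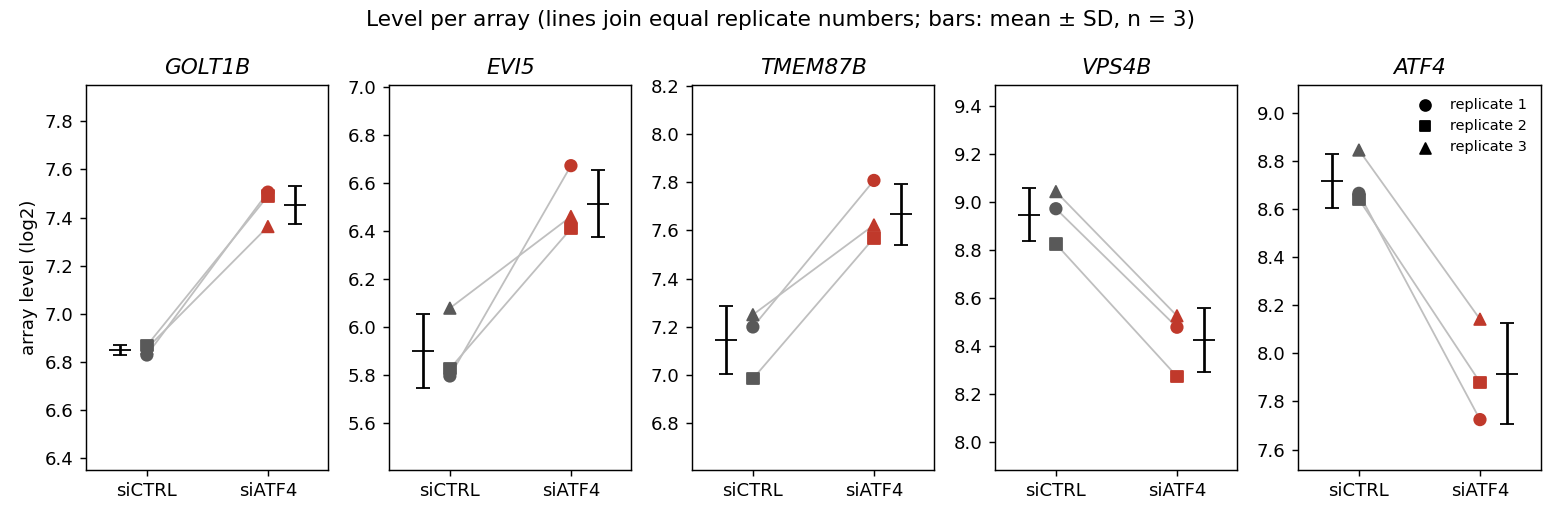
Log2 array level of the 4 members and of ATF4 on each array, with grey points for siCTRL, red points for siATF4, lines between arrays of the same replicate number and bars for mean ± SD (n = 3); each panel spans the same log2 range around its own centre. GOLT1B, EVI5 and TMEM87B lie higher with siATF4 on all arrays, and VPS4B and ATF4 lie lower.

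By size alone the members were not at the extreme of the array. Among all genes ordered from the highest difference, EVI5 stood at place 60, GOLT1B at 63 and TMEM87B at 116, and VPS4B stood at place 184 from the lowest. Ordered by the gap between groups they stood nearer the top, at places 7, 1 and 8 among genes with a higher mean and at place 8 among genes with a lower mean. The rule that chose them rests on this gap, so these places are a description only. VAMP3, a SNARE of recycling endosomes, had a larger difference than any member, 0.64 (SE 0.28, adjusted p = 1.00 in limma), but its groups overlapped. Without siATF4 replicate 1 it was at 0.41, below GOLT1B (0.58) and EVI5 (0.53). With all arrays it read 8.23, 7.40 and 7.66 with siATF4 against 7.09, 6.72 and 7.55 with siCTRL. Just inside the rule among trafficking genes were VPS26B, a retromer subunit, with a gap of 0.0048, and MCFD2, a cargo receptor subunit, with a gap of 0.0071. Just outside were the SNARE GOSR1 (-0.0069) and the exocyst subunit EXOC8 (-0.012), where a negative gap means overlap.

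**Figure D2:**
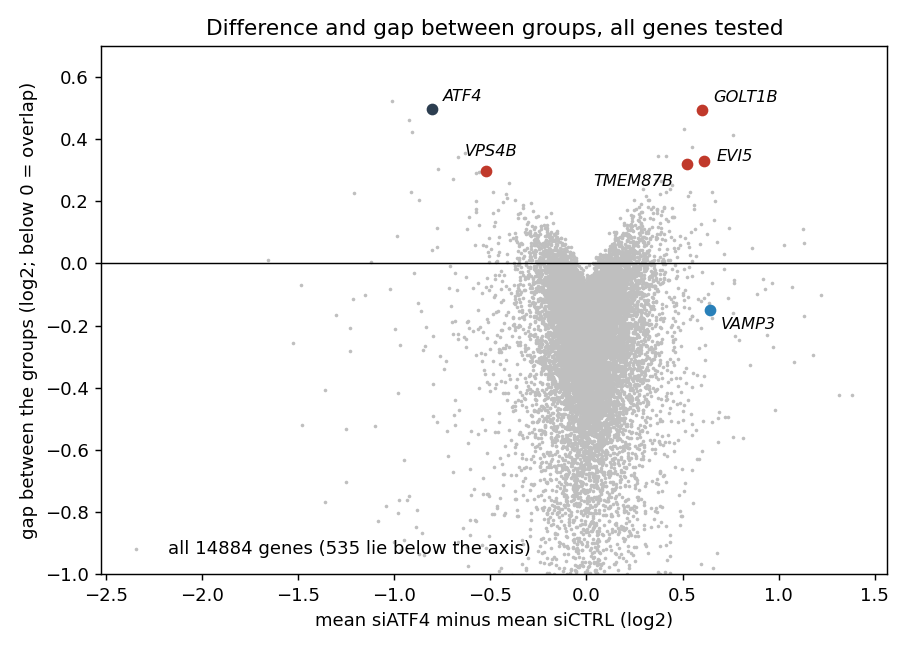
Log2 difference of group means (x axis) against the gap between groups (y axis, log2, below 0 where groups overlap) for all 14884 genes in grey, of which 535 lie below the axis. The members (red) and ATF4 (dark blue) lie at the upper edge, with gaps from 0.30 to 0.50, and VAMP3 (light blue) lies below 0 at a larger difference than any member. The members were chosen because their groups do not overlap.

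The closest relatives of the members were taken from a fixed list, 13 measured of 17, of which 10 had a higher mean with siATF4 and 3 a lower one, where 53.8% of all genes were higher. None of the 13 passed limma over all genes (adjusted p = 1.00 for each), and groups did not overlap for 2 of them, GOLT1A and SPAST, against 5.89% of all genes. Intervals below are limma's 95% intervals, not adjusted for the number of genes. RAB11A, RAB11B, RAB35 and VTA1 were not analysed here.

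GOLT1A, the paralog of GOLT1B, was a dim feature at 3.19 ± 0.10 with siATF4 and 3.36 ± 0.04 with siCTRL (SD, n = 3 each), a log2 difference of -0.17 (interval -0.42 to 0.08). EVI5L, the paralog of EVI5, differed by -0.02 (-0.33 to 0.29), and its sign turned to 0.079 without siATF4 replicate 3. RABGAP1, a TBC-domain protein of another branch, differed by 0.08 (-0.18 to 0.34). Each of these 3 intervals includes 0.

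TMEM87A, the paralog of TMEM87B, was at 8.04, 8.25 and 8.24 with siATF4, against 8.11, 7.84 and 8.15 with siCTRL, a log2 difference of 0.14 (interval -0.17 to 0.45). Its groups overlapped, and replicate number 1 went the other way, by -0.07. The other GOLD-domain proteins of this kind were GPR107 at 0.06 (-0.45 to 0.56), GPR108 at 0.10 (-0.35 to 0.56) and WLS, the carrier of Wnt proteins, at 0.15 (-0.12 to 0.43). GPR107 turned to -0.11 without siCTRL replicate 2, and GPR108 to -0.00069 without siCTRL replicate 3.

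VPS4A, the paralog of VPS4B and part of the same hexameric enzyme, was at 7.36, 7.13 and 7.55 with siATF4, against 6.96, 6.96 and 7.34 with siCTRL. Its log2 difference was 0.26 (interval -0.12 to 0.64), and the groups overlapped. SPAST, the microtubule-severing ATPase that ESCRT-III recruits, had the largest difference of these relatives, 0.28 (0.02 to 0.53, unadjusted p = 0.0357, adjusted p = 1.00 in limma). Of the ESCRT-III subunits, CHMP1B was at 0.21 (-0.13 to 0.55), IST1 at 0.14 (-0.12 to 0.40), CHMP4B at 0.12 (-0.25 to 0.50) and CHMP2A at -0.01 (-0.47 to 0.45). CHMP2A was at 0.0056 with equal array medians, and CHMP4B was at 0.0066 and CHMP1B at 0.07 without siCTRL replicate 2.

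**Figure D3:**
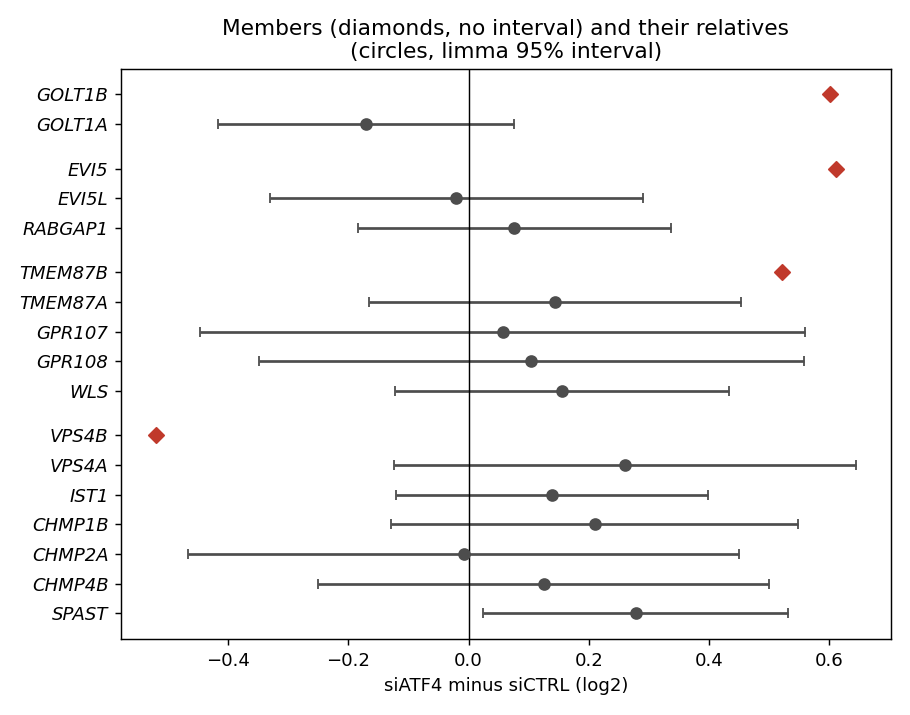
Log2 difference (siATF4 minus siCTRL) of each member (red diamonds, no interval since they were chosen on it) and of its measured relatives (circles with limma's 95% interval, 3 arrays a group). The intervals of the relatives include 0 in all cases but SPAST, and VPS4A lies at 0.26 where VPS4B lies at -0.52.

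In 13 lists of the trafficking machinery, without the 4 members, 183 genes were measured and 0 passed limma over all genes. The measured relatives above are among the 183, so the counts here are not separate from those above. At an unadjusted p below 0.05 in limma were 2 of the 183, SPAST and VPS26B, against 218 of all 14884 genes. In the fit with the replicate block there were 9 of the 183, against 464 of all 14884, and none of the 183 passed the adjustment. A higher mean with siATF4 was seen for 130 of them (71.0%) and a lower one for 53, against 53.8% higher over all genes. The median difference was 0.08, against 0.01 over all genes. The 3397 genes between the lower and upper quartile of these genes' levels (5.89 to 7.86) had 61.1% higher and a median of 0.05. Groups did not overlap for 9 of the 183 in the higher direction (4.92%, against 3.3% of all genes) and for 4 in the lower direction (2.19%, against 2.59%). By replicate number the share that was higher was 56.8%, 82.0% and 62.8%, and without siCTRL replicate 2 it was 57.9%, where the genes of like brightness were at 47.4% and had a median of -0.01. With quantile normalization the share was 62.8%, against 53.3% for genes of like brightness.

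Among genes of ER exit and the early Golgi, the list medians changed with single arrays. Of the 17 listed COPII and ER exit genes, which build the vesicle coat that leaves the ER, 9 were measured. They had 6 of 9 higher and a median of 0.01, or 0.10 without siATF4 replicate 1. They ran from SAR1B at 0.34, the GTPase that starts coat assembly, to SEC16A at -0.13. Of the 19 listed COPI coat and ARF genes, 11 were measured, with ARCN1 the only subunit of the coat itself. They had 8 of 11 higher and a median of 0.03, or 0.13 without siATF4 replicate 2, from ARFGAP2 at 0.23 to ARF1 at -0.17. The p24 proteins and cargo receptors had 10 of 17 higher and a median of 0.03, or -0.0073 with quantile normalization and -0.05 without siATF4 replicate 3, from TMED3 at 0.19 to MCFD2 at -0.25. Of the 15 listed Golgi YIP and TVP23 membrane proteins, 6 were measured, GOLT1B among them. The others had 3 of 5 higher and a median of 0.01, or -0.02 with quantile normalization and -0.12 without siATF4 replicate 3. They ran from YIF1A at 0.10 to GOLT1A at -0.17. In these 4 lists ARCN1 (0.18) lay higher without overlap, and ARF1, MCFD2 and GOLT1A lay lower without overlap. Over all genes the shares were 3.3% and 2.59%. The largest difference in size among the other measured genes of these 4 lists was the 0.34 of SAR1B. GOLT1B, which was chosen on this contrast, was at 0.60.

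Among tethers and fusion proteins, golgins, COG and TRAPP tethers had 26 of 33 higher and a median of 0.12, or 0.03 without siCTRL replicate 2, from COG1 at 0.26 to GOLGA3 at -0.16. The golgins GCC2 (0.25) and GOLGB1 (0.23) and the COG subunit COG7 (0.18) did not overlap between groups. Over all genes, 3.3% lay higher without overlap. SNAREs and NSF had 23 of 32 higher and a median of 0.06, from VAMP3 at 0.64 to BNIP1 at -0.22, with STX4 (0.30) and VAMP7 (0.18) without overlap. HOPS and CORVET, which are tethers of endosomes, had 7 of 8 higher and a median of 0.10, or 0.23 without siCTRL replicate 1. They ran from VPS11 at 0.39 to VPS41 at -0.01 (0.0018 with equal array medians), and VPS11 was at 0.08 without siATF4 replicate 1. The exocyst had 4 of 8 higher and a median of 0.02, or 0.13 without siATF4 replicate 1, from EXOC1 at 0.13 to EXOC5 at -0.15. EXOC1 and EXOC5 turned to -0.01 and 0.17 without siATF4 replicate 1.

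In the families of EVI5 and TMEM87B the other measured genes lay closer to 0 than the member. The members were chosen on this contrast and the others were not, so this distance is no sign that a member stands out. Of 39 listed TBC-domain proteins, 11 were measured, EVI5 among them, so most of that family was not seen. Those other than EVI5 had 6 of 10 higher and a median of 0.07, from USP6NL at 0.29 to SGSM1 at -0.12. The GOLD-domain seven-pass proteins other than TMEM87B had 6 of 7 higher and a median of 0.10, or -0.01 without siATF4 replicate 3, from GPR180 at 0.19 to TMEM181 at -0.09. GPR180 was at -0.20 without siATF4 replicate 3. The retromer, sorting nexin, GARP and EARP genes, which carry the endosome-to-Golgi route that TMEM87B is linked to, had 12 of 15 higher and a median of 0.09. They ran from VPS26B at 0.33 to SNX27 at -0.10, and SNX1 (0.29) and VPS26B did not overlap. In the GOLD-domain list TMEM181 lay lower without overlap. Over all genes, 3.3% lay higher and 2.59% lower without overlap.

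VPS4B was lower with siATF4, and the other ESCRT genes are set beside 2 background shares. A higher mean was seen for 53.8% of all genes and 61.1% of genes of like brightness. ESCRT-0, ESCRT-I and ESCRT-II, which gather ubiquitinated cargo before ESCRT-III acts, had 10 of 12 higher and a median of 0.16, or 0.02 without siATF4 replicate 1. They ran from STAM2 at 0.34 to VPS37A at -0.17, which turned to 0.05 without siATF4 replicate 3. ESCRT-III and MIT-domain genes other than VPS4B had 9 of 16 higher, near the background shares. Their median was 0.06, or -0.0016 without siCTRL replicate 2. They ran from SPAST at 0.28 to STAMBPL1, a deubiquitinase, at -0.13, which was at 0.23 without siATF4 replicate 1. The lists of RAB GTPases and of clathrin and adaptor complexes were not analysed here.

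**Figure D4:**
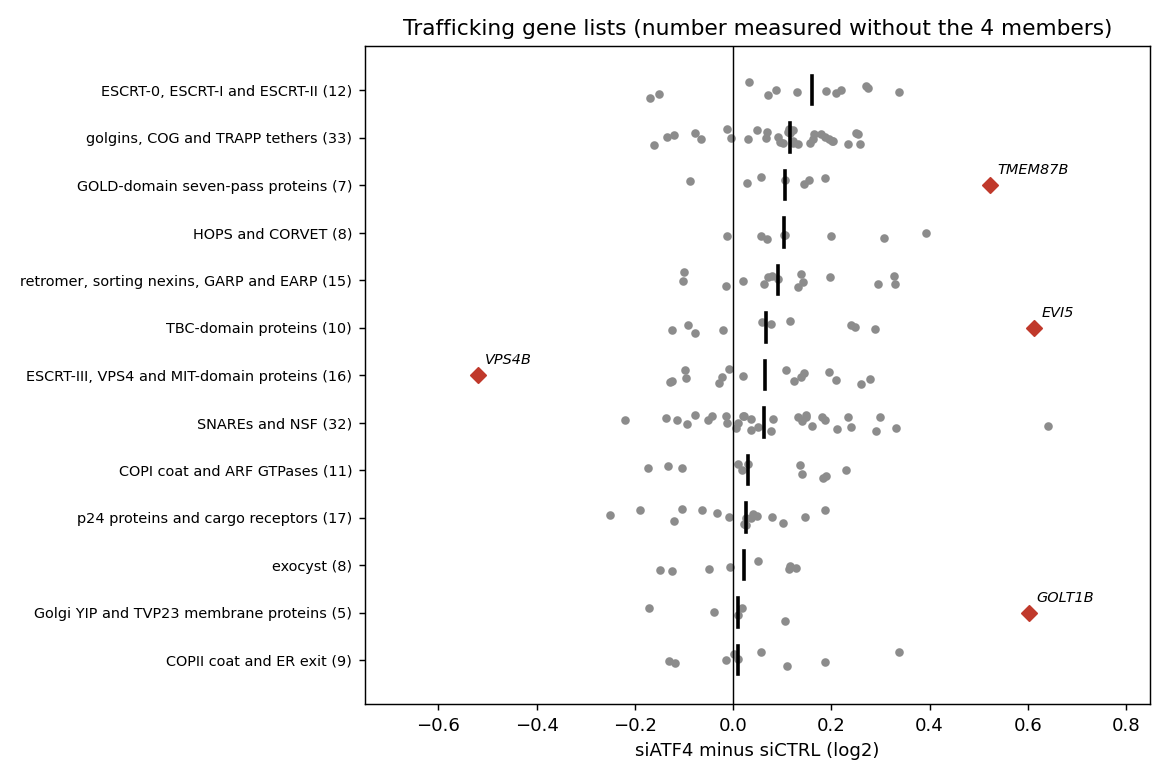
Log2 difference (siATF4 minus siCTRL) of each gene (grey points) in 13 trafficking lists, ordered by the list median (black bar), with the 4 members as red diamonds that are not counted in the medians. List medians run from 0.01 to 0.16. The members, which are single genes chosen on this contrast, lie at 0.52 to 0.61 and at -0.52.

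EVI5 is known as a regulator of mitotic entry and cytokinesis, so mitotic genes around it were set beside it. Of 14 measured, 8 had a higher mean and 6 a lower one, and 0 passed limma. The median difference was 0.01, or -0.01 with quantile normalization. With single arrays left out, the median of these genes ran from -0.23 (without siATF4 replicate 3) to 0.39 (without siATF4 replicate 2). Their mean level was 7.78, 6.95 and 8.19 with siATF4 and 7.34, 7.29 and 8.18 with siCTRL, so these genes varied more within a group than between groups. The array with the highest mitotic mean was replicate 3 in both groups, and EVI5 was highest on replicate 1 with siATF4 and on replicate 3 with siCTRL. With siATF4, replicate 2 was lowest for both. Of the type I interferon genes, 20 of 20 measured were lower, with a median difference of -0.47, or -0.03 without siCTRL replicate 1, and 0 passed limma. Their means were 4.94, 5.98 and 4.99 with siATF4 and 6.69, 5.82 and 4.99 with siCTRL. That list stood high on siCTRL replicate 1, and its part in the members' differences was not tested.

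The nearest measured protein-coding genes on either side of each member, by their order on GRCh38.p14, did not pass limma (adjusted p = 1.00 for all 8). RECQL, which shares the start region with GOLT1B, was at 8.47, 8.23 and 8.29 with siATF4, against 8.28, 7.98 and 8.25 with siCTRL, a log2 difference of 0.16 (95% interval -0.15 to 0.47). SPX on the other side was at -0.15. Beside EVI5, the transcriptional repressor GFI1 was at 0.06 and MTF2 at 0.22, both with a sign that turned with an array left out. Beside TMEM87B, the receptor kinase MERTK was at 0.07, again not stable in sign, and FBLN7 at 0.09. Beside VPS4B, the sphingolipid enzyme KDSR was at 0.13 and HMSD at 0.12, both opposite in sign to VPS4B. Of these 8 genes, FBLN7 and HMSD did not overlap between groups, by gaps of 0.03 each, and the others overlapped, against 5.89% without overlap over all genes. Both were dim and below the gene median of each array. FBLN7 had means of 3.75 with siATF4 and 3.67 with siCTRL, and HMSD of 3.64 and 3.52.

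Likeness between profiles was measured as the root-mean-square (RMS) distance, in log2 units, over the 6 arrays after each gene was centred on its own mean. EVI5 and TMEM87B were the closest pair of members, at 0.092, and TMEM87B was the nearest of all genes to EVI5. GOLT1B lay at 0.11 from EVI5 and 0.12 from TMEM87B, while VPS4B with its sign turned lay at 0.096 from GOLT1B and at 0.20 from both others. The members were chosen for a step between the same groups, so their likeness follows from that choice. The nearest to GOLT1B were PLGLA (0.089), MIR519D (0.11) and EVI5. After TMEM87B, those of EVI5 were RNF141 (0.10) and RAB30-DT (0.11), and those of TMEM87B were PLGLA (0.076), GSTM2 (0.082) and SPOPL (0.083). The nearest to VPS4B were GARS1 (0.11), the glycyl-tRNA synthetase, TYW3 (0.11), an enzyme of tRNA modification, and ZBTB12 (0.12). All points share the same 6 arrays, and ranking by Pearson's r instead kept 1 of the 3 nearest genes for GOLT1B and 0 of 3 for each of EVI5, TMEM87B and VPS4B.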

How the data were processed

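Expression in 6 samples was measured on Affymetrix arrays after whole-transcript labelling, per the labels' protocols. Deposited values were taken to be log2, with Partek named per the submitters' processing notes and the normalization and log base not given in the sources used here. Of 53617 features, 16098 had 1 gene symbol, 0 several and 37519 none. The brightest feature stood for a gene, which left 14884 genes with no filter on dim ones. The 2 groups were compared in R 4.3.3 by limma 3.58.1 (functions lmFit and eBayes, a single term for group, Benjamini-Hochberg adjustment over all genes, threshold 0.05), tested on simulated data. The members, lists and relatives were chosen with earlier results of these data known. Named were ATF4, the members, 17 fixed relatives, the highest and lowest gene of each list, and the 3 nearest profiles per member. Genes without overlap, those next to the rule's limit, GFI1 and other genomic neighbours were chosen after seeing their values.

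Replicates are numbered 1 to 3 in both groups by the labels. Deviations from group means correlated across genes at 0.20, 0.40 and 0.62 between arrays of the same number. Between arrays of unlike number the correlations ran from -0.59 to 0.48. The highest of these, siATF4 replicate 2 with siCTRL replicate 1, was above the same-number values for 1 and 2. Pairing by number is thus not clear except for number 3, and a fit with the number as a block was added on the basis of the data. The alternatives covered scaling (quantile normalization or equal array medians), the replicate block, a trended robust prior, array weights, leaving out dim genes, averaging the features of a gene, testing all features, and leaving out each array in turn.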

Additional observations from a re-analysis of the deposited data

How the results depend on the processing

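No gene was called under any alternative run, and with the replicate block the count was again 0, with 464 genes at an unadjusted p below 0.05 against 218 without it. That number lay between 152 and 395 when single arrays were left out. It was 262 with quantile normalization, 202 with the trended robust prior, 352 with array weights, 121 of the 9922 genes left without the dim ones and 1028 of 53617 with all features. The block changed no other call. The direction of the 4 members is fixed by the rule that chose them, so it is no sign of stability. When single arrays were left out, the difference ran from 0.58 to 0.65 for GOLT1B, 0.53 to 0.70 for EVI5, 0.44 to 0.58 for TMEM87B, -0.58 to -0.44 for VPS4B and -0.91 to -0.71 for ATF4. Among the relatives the sign turned with single arrays left out for EVI5L (-0.10 to 0.079), GPR107 (-0.11 to 0.23), GPR108 (-0.00069 to 0.27) and CHMP2A (-0.18 to 0.13), and for CHMP2A also with equal array medians (0.0056). The cause was not tested. Signal over background is unknown, so dim features such as GOLT1A are less certain.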
